A study of Mus musculus with 4 samples.

Results

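The 10 chemokine ligand genes described here are *Ccl1*, *Ccl3*, *Ccl4*, *Ccl5* and *Xcl1*, known as ligands of T and NKT cells, *Ccl20*, *Ccl25* and *Ccl28*, known as ligands of the gut epithelium, and *Cxcl9* and *Cxcl10*, which interferon induces in myeloid and epithelial cells. They were chosen by name, for these known sources, with earlier results of these data known. All 10 are among the 25239 genes of the count table. Their transcripts were measured by bulk RNA-seq in NKT cells, the T cells whose receptors bind lipids on CD1d, taken from the small intestinal lamina propria (SI-LP) of wild-type (WT) C57BL/6Jax mice. The 4 libraries form 1 condition, and they come from 2 experiments of 2 libraries each, with replicates 3 and 4 in the first and replicates 1 and 2 in the second. According to the methods, young adult mice of both sexes were used and were given a nanobody against ARTC2 shortly before harvest, which limits cell death during isolation. Viable cells that bound the PBS57-loaded CD1d tetramer and stained for TCRβ were kept, and cells with B220, CD11b, CD11c or CD8 were gated out. No source used here says whether each library holds the cells of 1 mouse, so the spread between replicates may be partly technical. NKT cells of lymphoid organs and sorted epithelial cells are not analysed here.

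Chemokines are small secreted proteins that guide leukocytes through G protein-coupled receptors. In the small intestine, CCL25 from epithelial cells draws T cells that carry CCR9, CCL28 draws plasma cells that carry CCR10, and CCL20 draws cells that carry CCR6. Activated T and NKT cells make CCL3, CCL4 and CCL5, which attract other leukocytes, and XCL1, which binds XCR1 on cross-presenting dendritic cells, whereas CXCL9 and CXCL10 call in cells that carry CXCR3.

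The sequences upstream of 4 of these genes are shown because *Xcl1* was the highest ligand of T cells, *Ccl25* and *Ccl28* varied together between libraries, and *Cxcl10* is the interferon-induced gene with the most counts. Each run holds the 250 bases before the annotated start of transcription (RefSeq, GRCm38.p6), written 5′ to 3′ on the strand of the gene. Capitals mark matches on either strand to the core promoter letters TATAAA, to the kappaB pattern (GGG, then any 5 bases, then CC), to the interferon response element (GAAA on both sides of any 2 bases) or to TCACACC (T-box). For *Ccl25*, which has 2 annotated starts, the run upstream of the inner start is given, and which start was in use was not tested.
Xcl1, chr1:164935523-164935772, minus strand: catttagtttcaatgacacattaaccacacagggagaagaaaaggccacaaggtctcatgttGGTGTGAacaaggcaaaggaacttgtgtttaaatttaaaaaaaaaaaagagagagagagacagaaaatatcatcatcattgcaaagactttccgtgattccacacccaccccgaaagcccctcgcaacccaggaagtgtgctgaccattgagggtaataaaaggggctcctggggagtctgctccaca
Ccl25, chr8:4349338-4349587, plus strand: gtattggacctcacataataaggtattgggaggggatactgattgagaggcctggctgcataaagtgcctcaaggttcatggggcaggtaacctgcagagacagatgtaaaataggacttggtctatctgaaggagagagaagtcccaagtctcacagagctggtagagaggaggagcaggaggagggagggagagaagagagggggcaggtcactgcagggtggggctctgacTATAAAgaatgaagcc
Ccl28, chr13:119623569-119623818, plus strand: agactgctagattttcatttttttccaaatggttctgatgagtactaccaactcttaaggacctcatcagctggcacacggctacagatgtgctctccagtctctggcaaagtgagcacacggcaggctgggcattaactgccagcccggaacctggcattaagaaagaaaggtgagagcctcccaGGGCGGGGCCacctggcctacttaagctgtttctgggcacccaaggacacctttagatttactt
Cxcl10, chr5:92348890-92349139, minus strand: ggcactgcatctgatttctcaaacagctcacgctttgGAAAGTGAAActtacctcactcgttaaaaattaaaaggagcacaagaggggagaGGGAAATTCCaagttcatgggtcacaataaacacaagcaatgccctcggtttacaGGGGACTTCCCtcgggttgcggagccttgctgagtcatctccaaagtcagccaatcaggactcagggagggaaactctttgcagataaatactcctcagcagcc
The run of *Cxcl10* held the interferon response element, as did 2.98% of 32851 promoters of the same length, and separate kappaB matches. The single match in *Xcl1* was to the T-box letters, which 3.33% of promoters held, and it lay 188 to 182 bases before the start. The run of *Ccl25* held TATAAA 16 to 11 bases before the start, a match found in 12.4% of promoters, and the run upstream of its outer start, not printed, held none of the 4 motifs. The kappaB letters of *Ccl28* are common, with matches in 45.8% of promoters. These matches describe letters and no binding was measured.

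Levels are given as CPM, the count of a gene relative to the TMM-scaled library total, and, to compare genes, as TPM, which also divides by gene length. The 4 libraries held between 3882803 and 8732858 counts on genes, and a level of 3 counts, taken as the floor of detection, lay between 0.287 and 0.753 CPM. This floor and the 95% intervals on counts and shares cover counting error only, with each count taken as independent, and not the spread between replicates. The methods name no molecular identifiers, so duplicate reads may make the intervals too narrow. Counts on the 8 T cell markers (such as *Cd3e*) were 0.265%, 0.126%, 0.301% and 0.143% of the total in replicates 1 to 4, with 95% Wilson intervals of 0.261% to 0.269%, 0.123% to 0.128%, 0.296% to 0.305% and 0.140% to 0.147%. The 6 NKT1 markers (such as *Tbx21* and *Nkg7*) took 0.0858% to 0.381%. Of 20 epithelial markers (such as *Epcam*), the summed share was 0.0942%, 0.980%, 0.0184% and 2.94%, with intervals of 0.0173% to 0.0196% in replicate 3 and 2.93% to 2.96% in replicate 4, and 16 were above 3 counts in all libraries. The CD8 genes were at most 0.000149%. The sums were 0.0114% to 0.839% for 6 plasma cell markers, 0.00388% to 0.0138% for 14 myeloid markers and 7.29e-05% to 0.00703% for 5 B cell markers. They were 0.00329% to 0.0127% for 9 stromal and endothelial markers and 0.000138% to 0.00752% for 6 mast cell markers. *Flt3*, *S100a8*, *S100a9*, *Kdr*, *Vwf*, *Mcpt1*, *Mcpt2*, *Tpsb2* and *Ms4a2* had 0 counts in every library. The highest mast cell share, in replicate 2, came from *Kit* alone (657 counts). All 8 T cell and all 6 NKT1 markers were above 3 counts in every library, and replicates 2 and 4 stood apart by their epithelial transcripts. In replicate 4 the Paneth cell gene *Lyz1* took 73.8% of the epithelial marker counts. Replicates 1 and 2 stood apart by plasma cell markers, with 0.655% and 0.839%, against 0.0114% and 0.0387% in replicates 3 and 4. In replicates 1 and 2 these shares, mostly *Jchain* (44022 and 66662 counts), exceeded those of the T cell markers. In bulk RNA, fewer cells of a type and less RNA per cell cannot be told apart.

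Of the 10 genes, 6 (*Xcl1*, *Ccl5*, *Ccl25*, *Ccl28*, *Cxcl9* and *Cxcl10*) reached 10 counts in 2 or more libraries, and 5 of these were above 3 counts in all 4. The same filter passed 46.3% of all genes. The others (*Ccl1*, *Ccl3*, *Ccl4* and *Ccl20*) are described by their counts. *Xcl1* and *Ccl5*, both ligands of T cells, were well expressed in every library. *Ccl3*, *Ccl4* and *Ccl1* were close to the floor in all but replicate 3. Of the 5 genes above 3 counts in every library, *Ccl25* had the largest ratio of highest to lowest CPM (6.92 to 230 CPM). *Ccl28* ranged from 0.223 to 63.6 CPM.

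**Figure D1:**
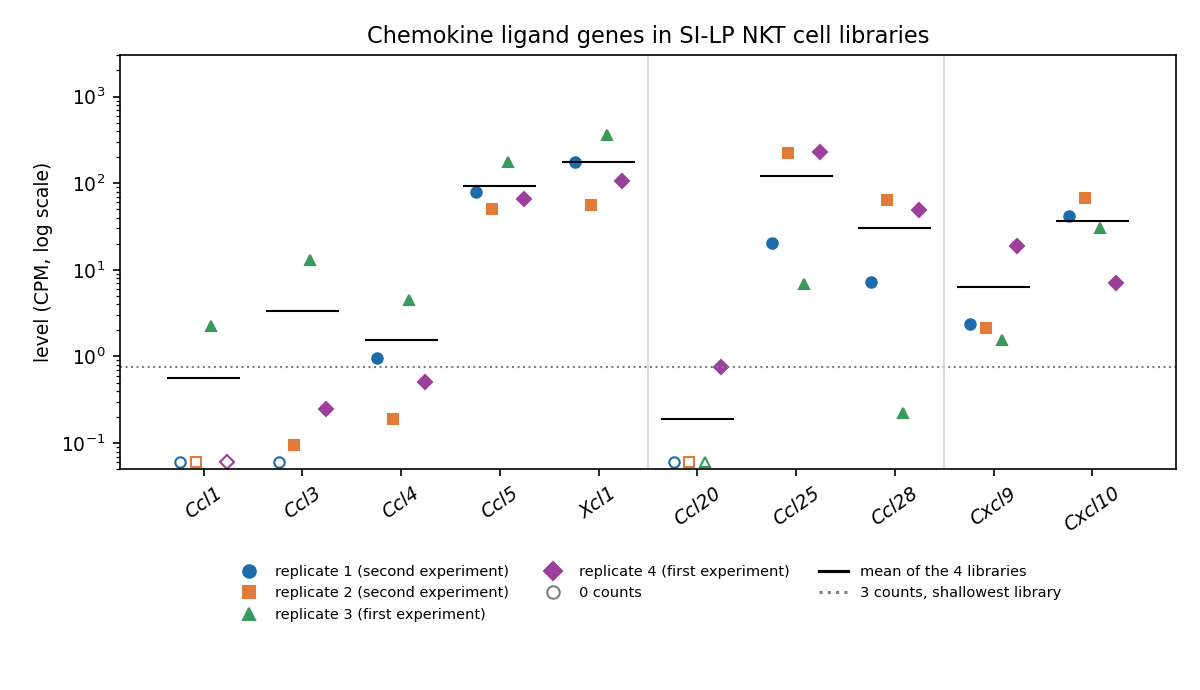
Level of each of the 10 chemokine ligand genes in CPM (log scale), with 1 point per library, a bar at the mean of the 4 libraries, open symbols for 0 counts and a dotted line at 3 counts in the shallowest library; T cell, epithelial and interferon-induced ligands are separated by grey lines. *Xcl1* and *Ccl5* lie between 50.2 and 355 CPM in all libraries, *Ccl3* is above the line in replicate 3 alone, and *Ccl25* and *Ccl28* are highest in replicates 2 and 4.

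*Xcl1* encodes lymphotactin, the ligand of XCR1, and lies on chromosome 1 (164931644 to 164935522, minus strand, GRCm38). It had 1280, 582, 1591 and 427 counts in replicates 1 to 4. These are 177, 55.7, 355 and 107 CPM, with a mean of 174 ± 131 CPM (SD, n = 4), or 889 ± 608 TPM. Replicate 3 was the highest and replicate 2 the lowest, and the 95% Poisson intervals of these libraries, 338 to 373 CPM and 51.3 to 60.4 CPM, were far apart. By mean TPM *Xcl1* stood at percentile 98.8 of the 11689 genes that passed the filter. Without replicate 3 its mean was 113 CPM.

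*Ccl5* encodes RANTES, a chemokine that cytotoxic and memory T cells store, and lies on chromosome 11 (83525779 to 83530518, minus strand). It had 569, 524, 791 and 264 counts, which are 78.8, 50.2, 177 and 66.2 CPM. The mean was 93.0 ± 57.0 CPM (SD, n = 4), or 466 ± 245 TPM, at percentile 97.5. Replicate 3 was again the highest and replicate 2 the lowest. *Xcl1* was above *Ccl5* in TPM in 4 of 4 libraries, by 0.79 ± 0.45 (SD) on the scale log2(TPM + 0.1). This was the only one of the 9 pairs of neighbours in the order of mean TPM whose difference exceeded its SD. The exact sign-flip permutation test, against either direction, gave p = 0.13 (0.75 after Benjamini-Hochberg adjustment over the 9 pairs), the smallest p that 4 libraries allow.

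*Ccl3* and *Ccl4* encode MIP-1α and MIP-1β, which T and NK cells release on activation, and lie 13.21 kb apart on chromosome 11 (83647843 to 83649378 and 83662584 to 83664683). *Ccl3* had 0, 1, 58 and 1 counts in replicates 1 to 4. In replicate 3 this was 12.9 CPM (95% Poisson interval 9.83 to 16.7), whereas in replicate 1, the second deepest library, the interval for 0 counts reached 0.511 CPM. *Ccl4* had 7, 2, 20 and 2 counts, which gave 0.970, 0.192, 4.46 and 0.502 CPM. *Ccl1* encodes a ligand of CCR8 made by activated T cells and lies 1346 kb from *Ccl5* on chromosome 11 (82176666 to 82179812). Its only counts were 10 in replicate 3, at 2.23 CPM (1.07 to 4.11). All 3 genes were thus highest in the same library, and without replicate 3 the means fell from 3.32 to 0.116 CPM for *Ccl3*, from 1.53 to 0.554 CPM for *Ccl4* and from 0.558 to 0 CPM for *Ccl1*. Replicate 3 also had the highest T cell and NKT1 marker shares and the lowest share of 8 immediate early genes (0.231%, against 0.257%, 0.410% and 0.338% in replicates 1, 2 and 4). Among these, *Nr4a1*, with 835, 415, 1209 and 749 CPM in replicates 1 to 4, and *Junb*, with 328, 118, 814 and 557 CPM, were highest in replicate 3 against the direction of the sum. The part of these genes in the counts of *Ccl3*, *Ccl4* and *Ccl1* was not tested.

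*Ccl25* encodes the ligand of CCR9 and lies on chromosome 8 (4325210 to 4360020, plus strand). It had 146, 2329, 31 and 917 counts in replicates 1 to 4, which are 20.2, 223, 6.92 and 230 CPM. The mean was 120 ± 123 CPM (SD, n = 4), or 262 ± 270 TPM, at percentile 95.7. Replicates 2 and 4 were each far above the other library of their experiment, by 3.44 (2 over 1) and 5.0 (4 over 3) on the log2 scale.

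*Ccl28* encodes the ligand of CCR10 and CCR3 on plasma cells and eosinophils and lies on chromosome 13 (119623819 to 119654358, plus strand). It had 52, 664, 1 and 198 counts, which are 7.20, 63.6, 0.223 and 49.7 CPM, with a mean of 30.2 ± 31.2 CPM (SD, n = 4) that was 19.0 CPM without replicate 2, at percentile 49.5 by TPM. The same libraries as for *Ccl25* were high, with log2 differences of 3.09 (2 over 1) and 6.56 (4 over 3). The median of the epithelial markers differed by 3.11 and 5.53 between the same libraries, and the median of all tested genes by 0.13 and 0.08. The part of epithelial RNA in the counts of *Ccl25* and *Ccl28* was not tested.

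*Ccl20*, the ligand of CCR6 that the epithelium over lymphoid follicles makes, lies on chromosome 1 (83116766 to 83119167, plus strand). It had 3 counts in replicate 4 and 0 in the other libraries, for which the 95% Poisson intervals reach 0.511, 0.353 and 0.823 CPM in replicates 1 to 3. Its expression was not detectable at this depth, including in replicates 2 and 4, which had the largest epithelial shares. *Lyz1* alone took 73.8% of the epithelial marker counts of replicate 4.

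*Cxcl10* encodes IP-10 and lies 18.56 kb from *Cxcl9*, which encodes MIG, on chromosome 5 (92346639 to 92348889 and 92321331 to 92328079, both minus strand). *Cxcl10* had 303, 713, 136 and 28 counts in replicates 1 to 4, which are 42.0, 68.3, 30.4 and 7.03 CPM. The mean was 36.9 ± 25.5 CPM (SD, n = 4), or 97.3 ± 74.4 TPM, at percentile 86.0. Its lowest library was replicate 4.

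*Cxcl9* had 17, 22, 7 and 76 counts, which are 2.36, 2.11, 1.56 and 19.1 CPM. The mean of 6.27 ± 8.54 CPM (SD, n = 4), at percentile 15.8 by TPM, was 2.01 CPM without replicate 4. Replicate 4 was thus the highest library for *Cxcl9* and the lowest for *Cxcl10*. The myeloid marker share was 0.00436%, 0.00736%, 0.00388% and 0.0138% in replicates 1 to 4, highest where *Cxcl9* was highest. The epithelial (2.94%) and stromal and endothelial (0.0127%) shares were also highest in replicate 4. *Lyz1* took 73.8% of the epithelial marker counts in that library, against 4.13% in replicate 2. Other epithelial markers differed in their highest library. In CPM, *Epcam* and *Muc2* were highest in replicate 2, and *Apoa1* and *Apoa4* in replicate 4. Within the myeloid list *Itgax* was highest in replicate 4 (68, 100, 13 and 116 counts in replicates 1 to 4) and *Itgam* in replicate 2 (26, 334, 21 and 65 counts), although cells with the proteins of these genes were gated out. The part of these cells in the counts of *Cxcl9* and *Cxcl10* was not tested.

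The sum of all 10 ligands was similar in the 4 libraries while its make-up was not. The ligands together had 2374, 4837, 2645 and 1916 counts in replicates 1 to 4, a share of all counts that differed by 1.69-fold at most. T cell ligands made up 78.2% (95% Wilson interval 76.5% to 79.8%) of these counts in replicate 1 and 93.4% (92.4% to 94.3%) in replicate 3, but 22.9% (21.8% to 24.1%) in replicate 2 and 36.2% (34.1% to 38.4%) in replicate 4. Epithelial ligands made up 61.9% (60.5% to 63.2%) in replicate 2 and 58.4% (56.1% to 60.5%) in replicate 4, against 8.34% (7.29% to 9.52%) in replicate 1 and 1.21% (0.858% to 1.70%) in replicate 3. In the second experiment the interferon-induced pair made up 13.5% (12.2% to 14.9%) of replicate 1 and 15.2% (14.2% to 16.2%) of replicate 2. In the first it made up 5.41% (4.61% to 6.33%) of replicate 3 and 5.43% (4.5% to 6.53%) of replicate 4. Its genes differed between these libraries, with *Cxcl10* at 5.14% and *Cxcl9* at 0.265% in replicate 3, and 1.46% and 3.97% in replicate 4. The split between T cell and epithelial ligands thus ran within each experiment and not between them.

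**Figure D2:**
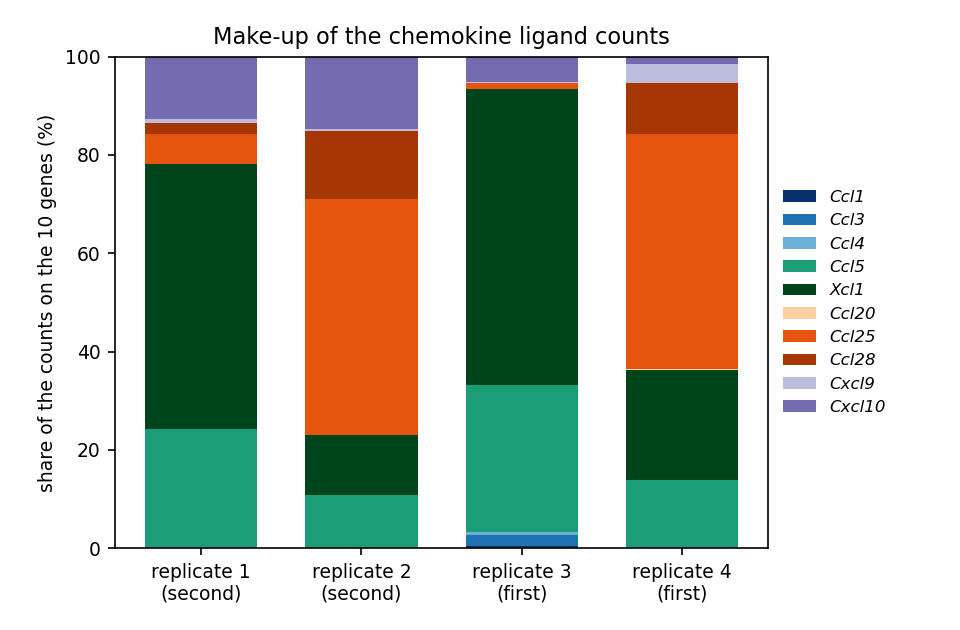
Make-up of the counts on the 10 chemokine ligand genes, as stacked percentages (vertical axis, 0 to 100%), with 1 bar per library and its experiment in brackets. *Xcl1* and *Ccl5* fill most of the bars of replicates 1 and 3, and *Ccl25* and *Ccl28* most of those of replicates 2 and 4.

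Within the other neighbouring pairs the order was not resolved beyond the spread. Genes further apart in the order were not tested against each other, and *Xcl1* and *Ccl5* ranked between 1 and 3 in every library. By mean TPM the genes ranked *Xcl1*, *Ccl5*, *Ccl25*, *Cxcl10*, *Ccl28*, *Ccl3*, *Ccl4*, *Cxcl9*, *Ccl1* and *Ccl20*. *Ccl5* exceeded *Ccl25* by 1.93 ± 3.25 (SD, n = 4) on the scale log2(TPM + 0.1), and was the higher of the pair in 2 of 4 libraries. *Cxcl10* exceeded *Ccl28* by 3.30 ± 3.88 and was higher in 3 of 4. *Ccl3* ranked above *Ccl4* by its mean, through replicate 3, but was the higher in 1 of 4 libraries.

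To set the ligands against the genes of the cells that are known to make them, their counts were divided by the summed counts of the marker lists, a scale chosen after the values were seen and therefore given with no test. Per 1000 T cell marker counts, *Xcl1* had 66.7, 53.1, 96.4 and 76.7 counts in replicates 1 to 4 (73.2 ± 18.2, SD, n = 4). The highest library exceeded the lowest by 1.82-fold, against 6.37-fold in CPM. *Ccl5* had 29.7, 47.8, 47.9 and 47.4 per 1000 (43.2 ± 9.02), and its fold fell from 3.52 in CPM to 1.62. Replicates 2, 3 and 4 were within 1.01-fold of each other for *Ccl5*, and replicate 1 lay below them. Over the 8089 genes that reached 10 counts in each library, the median fold was 4.77 on this scale and 3.26 in CPM, and 5.74% and 3.19% of genes had a fold below those of *Xcl1* and *Ccl5*. The 8 T cell markers, each divided by the sum they belong to, had folds of 1.22 (*Cd247*) to 3.05 (*Cd2*). *Cd3e* made up 56.6% to 69.1% of the list; without it the folds were 1.73 for *Xcl1* and 1.27 for *Ccl5*. With the NKT1 markers as divisor they were 1.5 and 2.73.

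*Ccl3* did not level out on this scale. It had 0, 0.0912, 3.51 and 0.180 counts per 1000 T cell marker counts, so that replicate 3 stayed above the others.

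Per 1000 epithelial marker counts, *Ccl25* had 21.4, 27.2, 30.7 and 8.03 counts in replicates 1 to 4. The fold between libraries was 3.82, against 33.3 in CPM, and replicate 4 was the low library, since the fold was 1.43 without it. In replicate 4 the Paneth cell gene *Lyz1* alone took 73.8% of the epithelial marker counts, against 31.9%, 4.13% and 4.65% in replicates 1 to 3. *Lyz1* was left out after these values were seen, so what follows is a description and no test. Without *Lyz1*, *Ccl25* had 31.4, 28.4, 32.2 and 30.6 counts per 1000 (30.7 ± 1.64, SD, n = 4), a fold of 1.13. The median fold of the 8089 genes on this divisor was 53.7. The 15 of the 19 remaining markers above 3 counts in all libraries had folds of 1.40 (*Cldn7*) to 284 (*Apoa4*), with a median of 3.24. *Ccl28* had 11.2, 8.09, 1.04 and 6.62 counts per 1000 without *Lyz1*, with replicate 3 (1 count) as the low library.

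**Figure D3:**
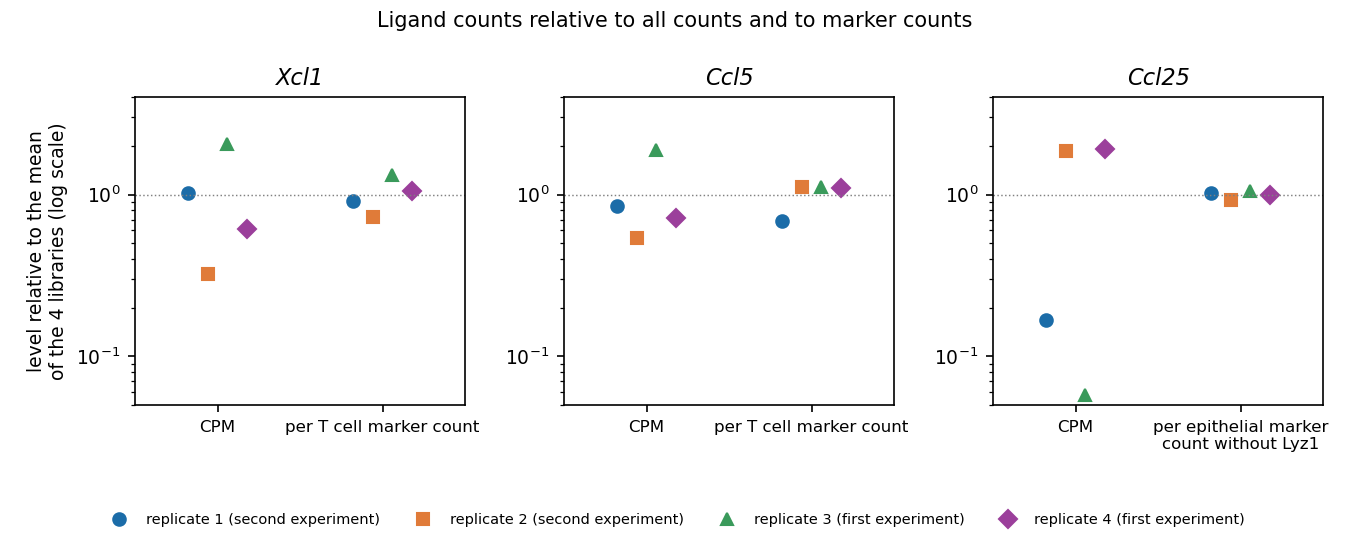
Counts of *Xcl1* and *Ccl5* as CPM and per T cell marker count, and of *Ccl25* as CPM and per epithelial marker count without *Lyz1*, each divided by the mean of the 4 libraries (log scale, 1 point per library, dotted line at the mean). The fold between the highest and the lowest library falls from 6.37 to 1.82 for *Xcl1* and from 3.52 to 1.62 for *Ccl5*. For *Ccl25* it falls from 33.3 to 1.13, and to 3.82 with *Lyz1*, which was left out after the values were seen.

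The experiment is the only labelled split of these libraries, and it was tested as a measure of batch and replicate error. No ligand passed the test between the second and the first experiment. In the quasi-likelihood fit of edgeR, adjusted by Benjamini-Hochberg over 11689 genes, 0 of the 6 ligands tested had an adjusted p under 0.05, and 0 had an unadjusted p under 0.05. Over all genes, 0 passed (0% called) and 248 had an unadjusted p under 0.05. DESeq2 called 53 of 10561 genes (0.502%) and 0 of the 6 ligands to which it gave an adjusted p. It gave none to *Ccl1*, *Ccl3*, *Ccl4* and *Ccl20*. Of these *Ccl3* had an unadjusted p of 0.0190, and all its counts but 2 came from replicate 3. The log2 fold changes of the second over the first experiment were -0.99 (SE 0.84) for *Xcl1* and -0.91 (SE 0.71) for *Ccl5*. For the epithelial ligands they were 0.04 (SE 1.56) for *Ccl25* and 0.51 (SE 1.91) for *Ccl28*, beside log2 differences of 3.09 to 6.56 between the libraries of 1 experiment. *Cxcl9* had -2.20 (SE 1.90) and *Cxcl10* 1.56 (SE 1.0), and the adjusted p of all 6 was 1.0 with edgeR. The CPM of both libraries of the second experiment lay above those of the first for *Cxcl10*, the only one of the 6 whose ranges did not overlap, as was the case in either direction for 29.1% of the 11689 genes. With 2 libraries on each side and this spread, a p above the threshold does not show that the levels were alike.

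**Figure D4:**
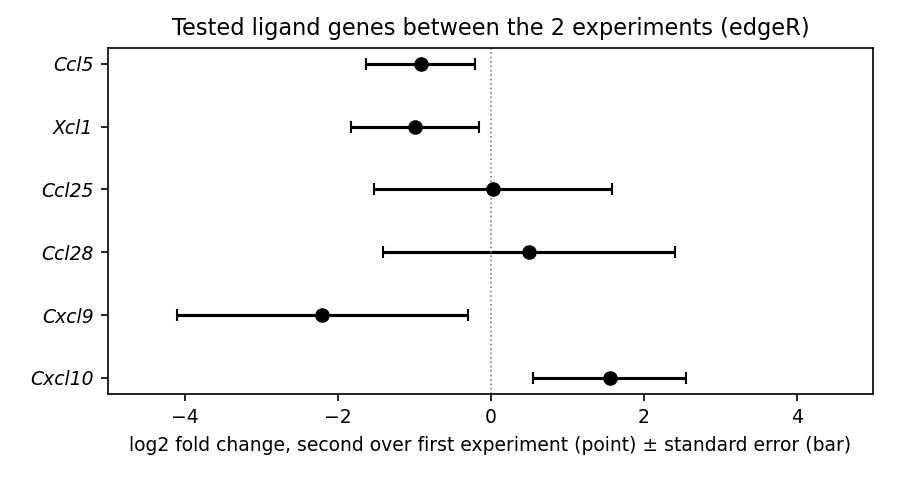
Log2 fold change of the second over the first experiment (horizontal axis) for the 6 ligand genes tested, as points with bars of ± 1 standard error. The standard error was derived from the F statistic of edgeR's quasi-likelihood test, and the dotted line marks 0. The bars are widest for *Ccl28* and *Cxcl9* (1.91 and 1.90), and the adjusted p is 1.0 for all 6.

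For each tested ligand, the 3 genes with the most similar pattern over the 4 libraries were found by the root mean square difference of log2 CPM after centring each gene. For *Xcl1* these were *Akna* (0.06), *Epas1* (0.06) and *Ldhb* (0.08), and for *Ccl5* they were *Tnfrsf1a* (0.02), *Morf4l1b* (0.05) and *Gm8369* (0.08). *Akna* had 175, 60.7, 387 and 115 CPM in replicates 1 to 4, and *Tnfrsf1a* had 106, 68.8, 245 and 89.8 CPM. For *Ccl25* they were *Klf5* (0.08), *Usp35* (0.09) and *Hnf4a* (0.12), and *Hnf4a* had 30.5, 267, 9.15 and 311 CPM. *Ccl28* was closest to *A1cf* (0.18), *4933431E20Rik* (0.18) and *Ctnnd1* (0.19). *Cxcl9* was closest to *Aurka* (0.09), *4632404H12Rik* (0.22) and *Anpep* (0.23), all with replicate 4 the highest, and *Cxcl10* to *Rptoros* (0.10), *Elp4* (0.11) and *Ccnh* (0.11). *Rptoros* is named as opposite in strand to *Rptor*, and counting without strand cannot separate such genes. Between ligands the difference was 0.39 for *Xcl1* and *Ccl5*, 0.89 for *Ccl25* and *Ccl28* and 2.49 for *Cxcl9* and *Cxcl10*, so the interferon-induced pair was the least alike of these 3. Over 4 libraries a pattern carries little information, and these names are a description of the libraries.

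Of 31 other chemokine ligand genes, 6 (19.4%) passed the filter, 16 had 0 counts in every library and 18 had at most 3 in each. *Ccl6* and *Ccl9*, CC chemokines of rodents that myeloid cells and the gut are known to express and that lie between *Ccl5* and *Ccl3* on chromosome 11, had the most counts. *Ccl6* had 7, 1113, 3 and 591 counts (64.1 ± 75.1 CPM, SD, n = 4) and *Ccl9* had 130, 3943, 1 and 208 counts (112 ± 178 CPM). Both were highest in the libraries where *Ccl25* was high. *Ccl5* lies 42.4 kb from *Ccl9* and *Ccl3* 54.76 kb from *Ccl6*, and neither of these 2 followed their order of libraries. *Cx3cl1*, which encodes the membrane-bound ligand fractalkine, had 2, 294, 4 and 89 counts, also highest in replicates 2 and 4. *Cxcl2*, a ligand for neutrophils, had 220, 12, 27 and 2 counts. *Cxcl16*, whose protein binds CXCR6, had 147, 110, 8 and 29 counts, and *Ccl22*, a ligand of CCR4, had 22 and 13 counts in replicates 1 and 3 and 0 in the others. None of the 6 passed the edgeR test between the experiments.

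Of 8 receptors of the ligands, 4 passed the filter. *Ccr9*, the receptor of CCL25, was the highest in CPM, with 1037, 300, 776 and 318 CPM in replicates 1 to 4 (608 ± 361, SD, n = 4). Both libraries high in *Ccl25*, replicates 2 and 4, were low in *Ccr9*, as they were in T cell markers. Per 1000 T cell marker counts *Ccr9* had 390, 285, 211 and 228 counts in replicates 1 to 4, lowest in replicate 3, so the opposition to *Ccl25* did not hold on this scale. *Cxcr3*, the receptor of CXCL9 and CXCL10, had 69.6 ± 46.1 CPM. *Xcr1*, a marker of dendritic cells, had 88, 2, 30 and 26 counts, and *Ccr10* had 23 and 101 counts in the second experiment, where plasma cell markers took 0.655% and 0.839% of the counts, and 0 in the first, where they took 0.0114% and 0.0387%. *Ccr1* had 8 counts in replicate 4, *Ccr8* 4 counts in all, *Ccr6* 1 count and *Ccr3* none. The receptors of the highest T cell ligand and of *Ccl28* were thus low, and those of *Ccl25* and *Cxcl10* were above 3 counts in every library. None of the 4 passed the edgeR test between the experiments.

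**Figure D5:**
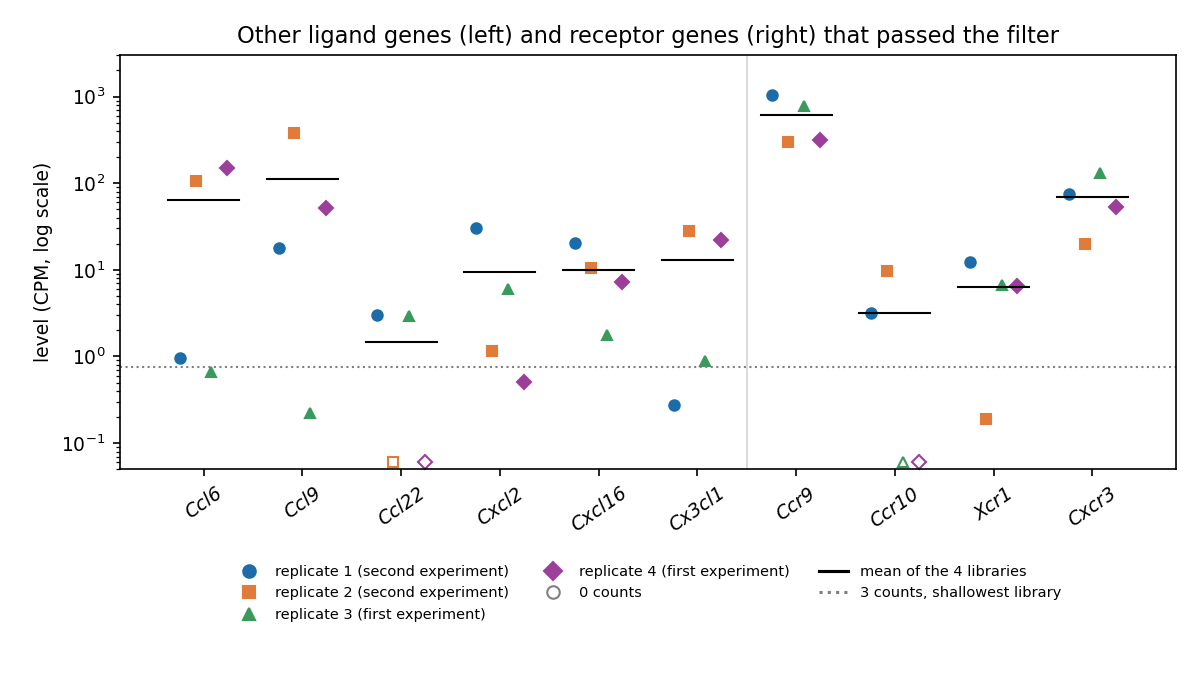
Level in CPM (log scale) of the 6 other chemokine ligand genes and the 4 receptor genes of the ligands that passed the filter, with 1 point per library, bars at the mean of the 4 libraries, open symbols for 0 counts and a dotted line at 3 counts in the shallowest library. *Ccr9* lies between 300 and 1037 CPM in all libraries, whereas *Ccl6* and *Ccl9* range from below the line to 148 and 378 CPM.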

How the data were processed

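The authors deposited 1 table of raw counts per gene for SI-LP NKT cell libraries, made with featureCounts 1.6.4 from paired reads, on exons, with primary alignments and no strand option (per the file headers, on mm10 RefSeq genes). The methods name HISAT2 and GRCm39; the submitters' processing notes name Bowtie2 and GRCm38.p6, which the deposited positions follow, so the aligner is uncertain. The gene lengths used for TPM are the authors' deposited values. The table has 6 library columns, and 2 of them, which no sample label names, were left out of every step.

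Library totals had a median of 6360109 counts. The ribosomal precursor *Rn45s* took 7.36% to 28.1% of them, so TMM factors (edgeR) scaled the CPM. A gene entered the test if 2 or more libraries held 10 or more of its counts. The experiments were compared by the edgeR quasi-likelihood F test at a Benjamini-Hochberg adjusted p of 0.05 over these genes. The SE of a log2 fold change was taken as its absolute value over the square root of F. The test was checked on simulated data. Levels of neighbouring genes were compared by an exact sign-flip permutation test, and patterns with log2 CPM at a prior count of 2.

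The 10 ligands, the marker lists and the lists of other ligands and receptors were chosen with earlier results of these data known. All 10 are named, as are other listed ligands and receptors that passed the filter and the 3 closest genes of each tested ligand. Some listed genes are not reported here. Receptors below the filter and single markers were named after their values were seen. Alternatives were DESeq2, median-of-ratios factors, library size with and without *Rn45s*, other filters, CPM and median TPM, a prior count of 0.5, shares without the 10 most abundant genes or per T cell marker, and leaving out each replicate. Promoters matched for 8 of the 10 genes. Statistics were run in edgeR 4.0.16 and DESeq2 1.42.0 (R 4.3.3), and with scipy 1.17.1 and pandas 2.3.3 in Python 3.11.15, and plots were drawn with matplotlib 3.10.9.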

Additional observations from a re-analysis of the deposited data

Results flagged for a closer look

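A library stood far from the other 3 in 10 of 26 values examined, where chance gives about 1 in 20, or 1.3 of them. The measure is the gap to the nearest library divided by the whole range, where Dixon's 95% critical value for 4 libraries was passed. Many of these values share counts or a divisor and rest on few counts. In CPM the gap was 1.0 for *Ccl1* and 0.981 for *Ccl3*, both with replicate 3 high, 1.0 for *Ccl20* and 0.955 for *Cxcl9*, both with replicate 4 high. Per 1000 T cell marker counts it was 1.0 for *Ccl1*, 0.949 for *Ccl3*, 1.0 for *Ccl20* and 0.88 for *Cxcl9*, with the same libraries high, and 0.971 for *Ccl5*, with replicate 1 low. Per 1000 epithelial marker counts it was 1.0 for *Ccl20*. *Ccl1* and *Ccl20* had counts in 1 library only, so a gap of 1.0 follows from 10 and 3 counts.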

How the results depend on the processing

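No ligand that could be tested was called between the experiments under any alternative. Over all genes, edgeR called 0 with TMM factors, median-of-ratios factors, library size alone and the filter on all 4 libraries, where 248, 256, 325 and 257 genes had an unadjusted p under 0.05. It called 60 without a filter on low counts and 0 to 7 with one replicate left out, where the lone library of an experiment is assumed to vary like the others, and DESeq2 called 53. The cause was not tested. The fold between the highest and the lowest library per marker count was 2.73 for *Ccl5* with the NKT1 markers as divisor, against 1.62, and 1.01 to 1.62 with one replicate left out. For *Ccl25* it was 1.13 without *Lyz1*, against 3.82, and 1.43 to 3.82 with one replicate left out. For *Xcl1* it was 1.44 to 1.82.

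Ranked by CPM in place of TPM, *Ccl5* moved from percentile 97.5 to 82.6, *Xcl1* from 98.8 to 91.3 and *Cxcl10* from 86.0 to 61.0. Of the 3 genes closest to *Ccl28*, 1 remained with a prior count of 0.5, and 2 did for each of the other 5 ligands. Of the 9 neighbouring pairs, 7 kept their order by mean CPM and by median TPM, and 6 to 8 with one replicate left out. Mean levels and shares moved by less than their SD under the other scalings, but that SD is large, and the loss of 1 of 4 libraries cannot shift a mean that far. No paired analysis was possible because the design has a single condition. Depth limits *Ccl1*, *Ccl3*, *Ccl4* and *Ccl20* to an upper bound in 2 or more libraries each.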
